A study of Mus musculus with 4 samples.

Results

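Translation initiation factors and elongation factors were taken as every gene symbol in the 4 libraries that begins with Eif or Eef and a digit. This gave 62 of the 11754 symbols listed, 55 Eif symbols and 7 Eef symbols, and the tags of each symbol were summed. By this rule 3 older symbols of Argonaute proteins (Eif2c1, Eif2c2 and Eif2c5) were counted with the initiation factors, as were the kinases of eIF2 alpha and the eIF4E-binding repressors, which act on initiation.

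Alveolar macrophages, the resident phagocytes of the lung air spaces, were profiled by SAGE (serial analysis of gene expression). In this assay a short tag beside an NlaIII site (CATG) of the cDNA is sequenced and counted. The mice were wild-type BALB/c. The group named Pre AM (2 libraries) came from untreated mice without lung metastasis, and the group named Day 21 AM (2 libraries) from mice with lung metastasis given BNL cells, a mouse hepatocellular carcinoma line, intravenously 21 days before. No sham injection of the untreated mice is mentioned, so an effect of the injection and one of the metastasis cannot be told apart. Nothing states that replicates within a group came from different mice or pools, and the p-values therefore reflect the spread among these libraries alone, which could be technical.

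Translation begins when eIF2, with GTP and the initiator tRNA, joins the small ribosomal subunit together with eIF1, eIF1A, eIF3 and eIF5. The cap-binding complex eIF4F (eIF4E, eIF4G and the helicase eIF4A) brings this assembly to the mRNA, and eIF5B helps the large subunit to join. In elongation eEF1A delivers each aminoacyl-tRNA, the eEF1B subunits recharge eEF1A with GTP, and eEF2 moves the ribosome along the mRNA. The eIF2 alpha kinases and the eIF4E-binding proteins slow initiation under stress or when mTOR is inactive. In macrophages this machinery supports the large output of secreted and lysosomal proteins.

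The tags behind the most counted factors are printed 5′ to 3′ as the mRNA strand, with the NlaIII site in capitals. They show which stretch of each mRNA was counted, and they are given for the 10 members with a mean level of at least 100 CPM (tag counts per 1000000 of the TMM-scaled library) and more than 1 counted tag. A second tag is shown where it held more than 2% of the gene's counts.
Eef1a1, first tag: CATGaggcagacagttgctgtgggt
Eef1a1, second tag: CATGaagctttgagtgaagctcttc
Eef2, first tag: CATGgccaagtggagttcccccaga
Eef2, second tag: CATGctgcacagtgcccacccatca
Eef1d: CATGtgtgtgaggacctgctgagat
Eef1b2: CATGgatgtggctgcttttaacaag
Eif3h: CATGgcccaggctcttcaagaatac
Eif3f: CATGctcaacagcaacatcaatgac
Eif3g: CATGcagccaaaccgcagagctgac
Eif3k, first tag: CATGgcgatgtttgagcagatgaga
Eif3k, second tag: CATGgaccttctggaaggcataact
Eif4g2, first tag: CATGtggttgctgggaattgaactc
Eif4g2, second tag: CATGatgcaatcttcaggaaagtaa
Eif4a1, first tag: CATGgtgaccgaagaagacaagagg
Eif4a1, second tag: CATGcttaaccggagatacctgtcc
Positions come from a match of the tags to GENCODE M21 transcripts (GRCm38). The first Eef1a1 tag lay on the minus strand at chr9:78478815-78478839, in the coding part of exon 8 of 8, at the last NlaIII site before the 3′ end. Its sequence was found in transcripts of 13 genes, Eef1a1 and 12 others listed under other names, so its counts cannot be given to Eef1a1 alone. The first Eef2 tag, at chr10:81182365-81182389 on the plus strand, lay in the 3′ UTR (exon 14 of 14) and matched no other gene. The first Eif3h tag, at chr15:51786737-51786761 on the minus strand, lay in the coding part of exon 8 of 8 and also matched 1 other locus. The Eif3f tag ran from exon 7 into exon 8 of 8 and matched Eif3f alone. The first Eif4g2 tag matched transcripts of 202 genes, which makes it the least specific tag of the set, whereas its second tag matched Eif4g2 alone.

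Library totals ranged from 1630776 to 2198563 counted tags, on 4754 to 5859 symbols. No library held a tag with a count of 1, so a gene listed at 0 may have been read once per tag, and no upper limit is given for it. Of the 62 symbols, 51 had counts (45 Eif and 6 Eef), and 11 were at 0 in every library, among them Eif2a, Eif2d, Eif5a2 and the 3 Argonaute symbols. Low counts removed 24 of the 51, which left 27 tested members, 22 initiation and 5 elongation factors, among 2979 tested symbols. SAGE counts a transcript at a site, so the levels in CPM were not divided by gene length.

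No member passed the test. With edgeR's quasi-likelihood test and Benjamini-Hochberg adjustment over all tested symbols, 0 of 27 members were higher and 0 were lower on day 21, against 0.671% and 0.0671% of all 2979 tested symbols. In either direction 22 symbols (0.739%) were called. At an unadjusted p under 0.05, 0 members were higher and 1 was lower, beside 3.52% and 2.11% of all tested symbols, and DESeq2 called 0 members at either threshold. The log2 difference (Day 21 AM minus Pre AM) was below 0 in 21 of the 27 members (77.8%) and in 54.4% of all tested symbols. Its median was -0.52 over the members, -0.53 over the initiation factors and -0.48 over the elongation factors, and -0.07 over all tested symbols, whose quartiles were -0.53 and 0.38. Both Day 21 libraries lay below both Pre libraries in 9 of 27 members (33.3%), against 16.0% of all tested symbols. They lay above in 1 member, Eif5, against 15.2%. In the remaining 17 the groups overlapped. RNA from a mixture of cells was counted, so fewer cells of a type and less RNA per cell cannot be told apart in any of these values.

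**Figure D1:**
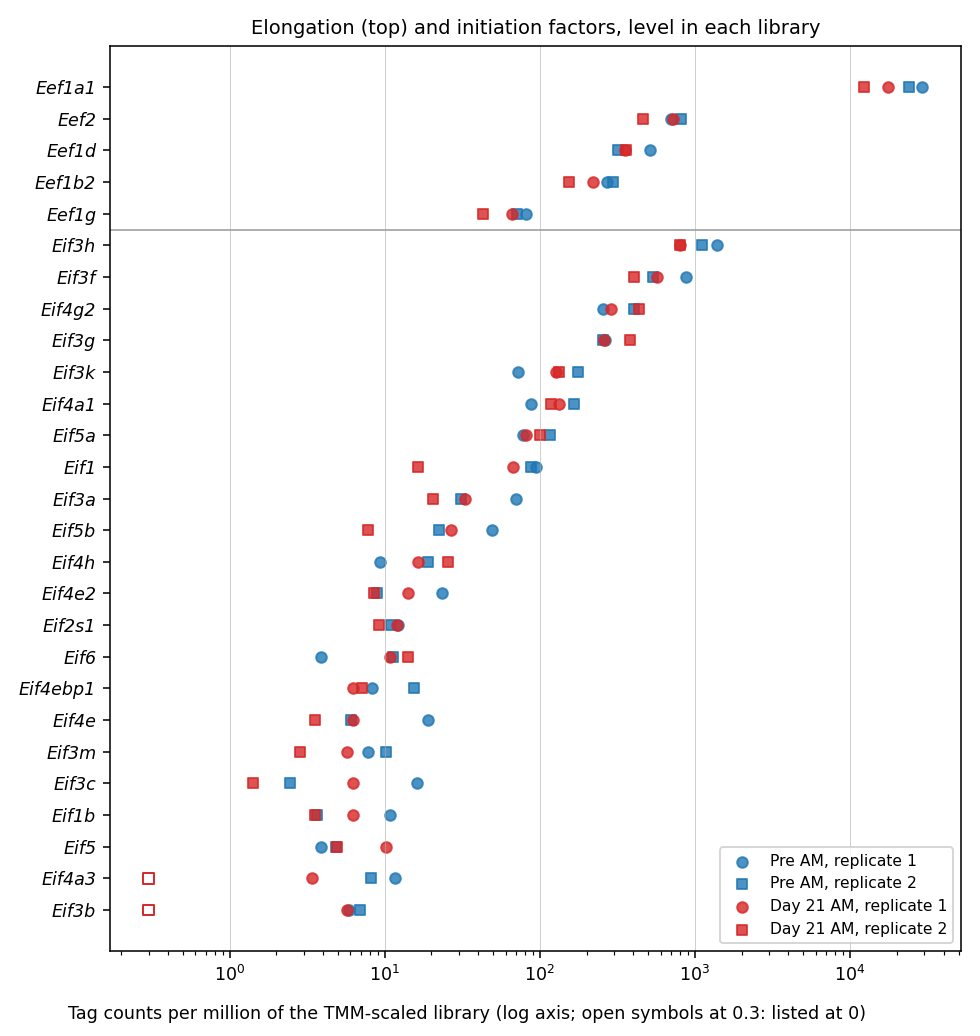
Level of each tested elongation factor (above the line) and initiation factor in the 4 libraries, in CPM on a log axis; blue, Pre AM; red, Day 21 AM; circles, replicate 1; squares, replicate 2. Eef1a1 stands far above every other factor. Both red symbols lie to the left of both blue ones in 9 of 27 members (33.3%, against 16.0% of all tested symbols). Among these are Eef1a1, Eif3h, Eef1b2 and Eef1g, whose most counted tags each match other genes as well. In 17 members the groups overlap.

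**Figure D2:**
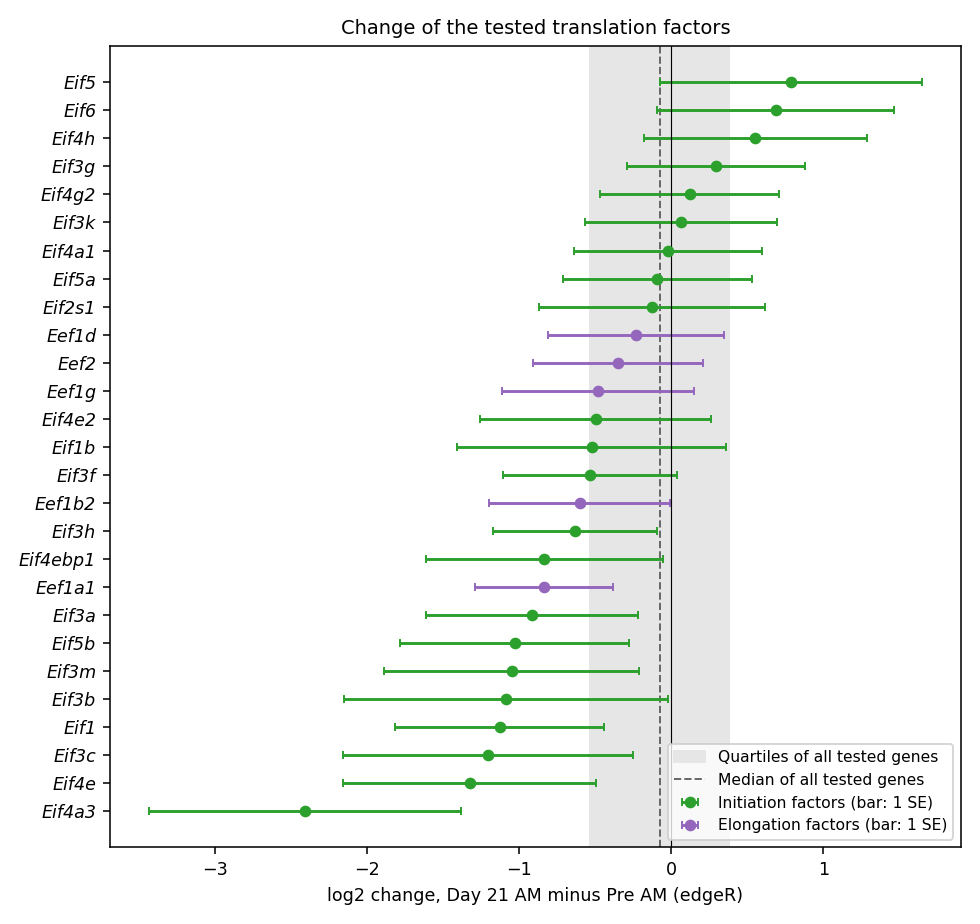
Log2 difference, Day 21 AM minus Pre AM, of the 27 tested members, with bars of 1 SE; grey band and dashed line, quartiles and median of all 2979 tested symbols. Of the members, 21 lie below 0 and 6 above, and none passed the adjusted threshold.

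Eef1a1, which carries aminoacyl-tRNA to the ribosome, was the most abundant factor by far. Its tags numbered 59855 and 58604 in the Pre libraries and 30726 and 17289 in the Day 21 libraries. As a level, this was 29214 and 23800 CPM before and 17449 and 12236 CPM on day 21, so that both Day 21 libraries were below both Pre libraries. Eef1a1 alone made up 3.05% (95% exact binomial interval 3.03 to 3.07) and 2.67% (2.64 to 2.69) of all counted tags in the Pre libraries. On day 21 it made up 1.72% (1.70 to 1.74) and 1.06% (1.04 to 1.08). These intervals cover counting error only and are far narrower than the gap between libraries of 1 group. The log2 difference was -0.84 ± 0.45 (SE, n = 2 and 2), a ratio of 0.560, with an adjusted p of 0.955 by edgeR's quasi-likelihood test, so it did not stand out from the spread between replicates across genes.

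Nearly all Eef1a1 counts lay in the tag at the last NlaIII site. That tag was at 28833 and 22721 CPM in the Pre libraries and at 16768 and 11775 CPM in the Day 21 libraries. The difference between the group means of its log2 levels was -0.87. The tags farther upstream summed to 381 and 1079 CPM before and to 681 and 461 CPM on day 21, so that the groups overlapped there, with a log2 difference of -0.19. Among these, the least counted tag was lower in both Day 21 libraries, at 14.2 and 9.75 CPM before and 9.65 and 4.95 CPM on day 21. The upstream tags together made up 1.30% and 4.53% of the gene's counts in the Pre libraries and 3.90% and 3.77% in the Day 21 libraries. A further 4 counted tags deposited under the symbol Gm6548 have sequences that also occur in Eef1a1. Their sum of 315 and 681 CPM before and 367 and 516 CPM on day 21 overlapped between the groups as well.

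**Figure D3:**
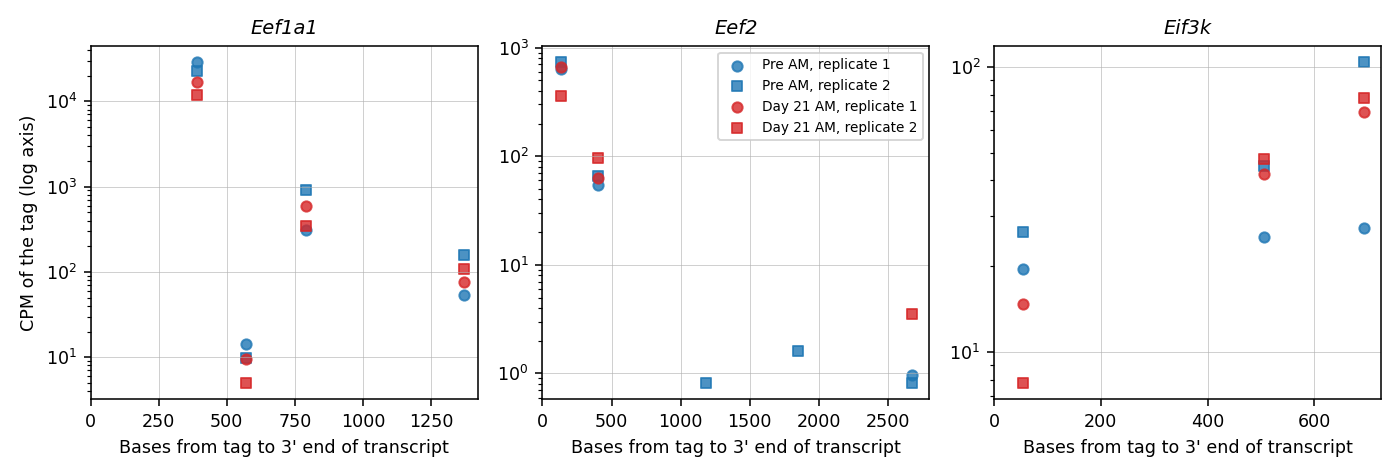
CPM of each counted tag (log axis) of Eef1a1, Eef2 and Eif3k against its distance from the 3′ end of the matched transcript, in bases; blue, Pre AM; red, Day 21 AM; circles, replicate 1; squares, replicate 2; tags at 0 are not drawn. For Eef1a1 the groups separate at the most counted tag, 391 bases from the end, and overlap at the tag 789 bases from it.

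Eef2, the translocase, was the next most abundant elongation factor, at 697 and 807 CPM in the Pre libraries and 721 and 460 CPM in the Day 21 libraries. The groups overlapped because replicate 1 of day 21 lay between the Pre libraries. Its log2 difference was -0.35 ± 0.56 (SE). The first Eef2 tag held 92.0% and 91.3% of the gene's counts in the Pre libraries and 91.2% and 78.2% in the Day 21 libraries, the lowest share being in replicate 2 of day 21. The second tag, upstream in the same 3′ UTR, was at 54.2 and 66.2 CPM before and 63.6 and 97.0 CPM on day 21, again overlapping.

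The 3 listed subunits of the eEF1B complex, which exchanges GDP for GTP on eEF1A, all had negative log2 differences and none passed the test. Eef1b2, an exchange subunit, was at 272 and 296 CPM before and at 219 and 155 CPM on day 21, without overlap, with a log2 difference of -0.60 ± 0.59 (SE). The tag with 99.3% of its counts also matched Gm43712, so these counts cannot be given to Eef1b2 alone. Eef1g, the structural gamma subunit, was at 81.0 and 71.1 CPM before and 65.9 and 43.2 CPM on day 21, also without overlap, with -0.48 ± 0.63. Each counted Eef1g tag likewise matched other genes. Eef1d, the delta exchange subunit, was at 513 and 321 CPM before and 353 and 357 CPM on day 21, where both Day 21 libraries lay between the Pre libraries. Its main tag matched Eef1d alone. Eef1e1, a scaffold protein of the tRNA synthetase complex, had 4 tags in 1 Pre library and none elsewhere, and Eef2k, the kinase that inhibits eEF2, was listed at 0 in all 4.

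The elongation factors thus summed to 30778 and 25296 CPM in the Pre libraries and to 18807 and 13252 CPM in the Day 21 libraries. The ratio of geometric means (means taken on the log2 scale) was 0.566 (log2 -0.82), and the SD of the log2 sums within groups was 0.29. Without replicate 2 of day 21 the log2 difference of the sum was -0.54. Eef1a1 supplied 94.9% and 94.1% of elongation factor counts before and 92.8% and 92.3% on day 21. Without it the class summed to 1564 and 1496 CPM before and 1358 and 1016 CPM on day 21, a log2 difference of -0.38. The sum of the other elongation factors was therefore also lower, at a smaller size, and the SD of its log2 values within groups was 0.21. Within that sum, Eef2 and Eef1d overlapped between the groups.

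Summed, initiation factors were counted at a far lower level than elongation factors when Eef1a1 was included. Without Eef1a1 the elongation factors summed to less than the initiation factors in every library. The sum of the initiation factors was 3403 and 3057 CPM in the Pre libraries and 2526 and 2530 CPM in the Day 21 libraries, without overlap. The ratio of geometric means was 0.784 (log2 -0.35). The SD of the log2 sums within groups was 0.08. With 2 libraries against 2, a two-sided exact permutation test of such a sum cannot go below p = 0.333, and none was run.

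Most initiation factor counts belonged to eIF3, the scaffold that holds the small subunit to the mRNA and to the other factors. It supplied 79.6% and 69.9% of them in the Pre libraries and 72.3% and 69.2% in the Day 21 libraries. The eIF3 symbols summed to 2708 and 2138 CPM before and 1826 and 1750 CPM on day 21, without overlap. The next largest group, eIF4F and its partners, summed to 411 and 622 CPM before and 465 and 600 CPM on day 21, with overlap. The lower sum of the initiation class was thus not shared by all its groups. All 12 listed subunit symbols had counts and 8 were tested, of which 6 had negative log2 differences and none passed the test. The most abundant was Eif3h, a subunit outside the conserved core, at 1386 and 1107 CPM before and 805 and 803 CPM on day 21. Its Day 21 libraries were close to each other and below both Pre libraries, with a log2 difference of -0.63 ± 0.54 (SE). Eif3f, which like Eif3h belongs to the MPN-domain subunits, was at 874 and 536 CPM before and 570 and 404 CPM on day 21, and its groups overlapped (-0.53 ± 0.57).

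Differences between the eIF3 subunits were described by ratios of counts and not tested. Eif3g, an RNA-binding subunit, was at 264 and 256 CPM before and at 259 and 379 CPM on day 21, a log2 difference of 0.30 ± 0.58. Counts of Eif3h stood to those of Eif3g as 5.26 and 4.33 in the Pre libraries and as 3.11 and 2.12 in the Day 21 libraries. That ratio does not depend on scaling between libraries, and its groups did not overlap. The ratio of Eif3h to Eif3f did overlap, at 1.59 and 2.06 before and 1.41 and 1.99 on day 21. So did that of Eif3f to Eif3g, at 3.32 and 2.10 before and 2.202 and 1.07 on day 21, and that of Eif3h to Eif3k, at 19.2 and 6.31 before and 6.38 and 6.04 on day 21.

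Eif3k, a small peripheral subunit, showed the spread that tags within 1 gene can have. Its sum was 72.2 and 175 CPM in the Pre libraries and 126 and 133 CPM in the Day 21 libraries, so that both Day 21 libraries lay between the Pre ones. The first tag, which spans the start of the coding sequence in exon 1 of 8, was at 27.3 and 104 CPM before and 69.3 and 77.9 CPM on day 21. The tag nearest the 3′ end of the form with 8 exons, 54 bases from it, was instead at 19.5 and 26.4 CPM before and 14.8 and 7.79 CPM on day 21, with both Day 21 libraries lower. Eif3a, the large core subunit, was at 70.3 and 30.9 CPM before and 32.9 and 20.5 CPM on day 21 and overlapped, with -0.91 ± 0.70. The other 7 eIF3 symbols had at most 33 counts in any library.

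Of the 10 symbols of eIF4F and its partners all had counts, 5 were tested, 3 had negative log2 differences and none passed the test. Eif4g2, an eIF4G-like scaffold that lacks the eIF4E-binding part, was at 257 and 406 CPM before and 286 and 435 CPM on day 21. Its log2 difference of 0.12 ± 0.59 turned to -0.04 when tags shared between genes were left out, and the first tag, found in 202 genes, held 59.9% to 71.0% of its counts. Eif4a1, the helicase, was at 87.8 and 167 CPM before and 133 and 118 CPM on day 21, and its groups overlapped. Eif4h, which stimulates the helicase, was at 9.27 and 19.1 CPM before and 16.5 and 25.5 CPM on day 21 (0.55 ± 0.73), also with overlap. Eif4e2, a cap-binding homologue that acts as a repressor, was at 23.4 and 8.93 CPM before and 14.2 and 8.49 CPM on day 21.

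The cap-binding protein itself, Eif4e, and the helicase Eif4a3, a core protein of the exon junction complex, were not among the genes named by rule and were picked after their values were seen. Eif4e had 39 and 15 tags in the Pre libraries and 11 and 5 in the Day 21 libraries, with overlap once scaled (6.09 CPM in the lower Pre library and 6.25 CPM in the higher Day 21 library). Eif4a3 had 24 and 20 tags before and 6 and 0 on day 21, without overlap. It was the 1 member below an unadjusted p of 0.05, with a log2 difference of -2.41 ± 1.03 (SE) and an adjusted p of 0.713 by edgeR's quasi-likelihood test, the smallest of all members. Eif4a3 reached the minimum count of the filter only in the Pre libraries, so the filter itself favoured a negative difference. Of the eIF4E-binding repressors only Eif4ebp1, the mTOR substrate, had counts, with 17 and 38 tags before and 11 and 10 on day 21. As levels these were 8.30 and 15.4 CPM before and 6.25 and 7.08 CPM on day 21, a log2 difference of -0.83 ± 0.78. Eif4ebp2, Eif4ebp3 and the transporter Eif4enif1 were listed at 0.

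Among the factors of start codon selection and subunit joining, 7 symbols had counts, 4 were tested, 3 had negative log2 differences and none passed the test. Eif1, which guards the fidelity of start codon choice, was at 94.7 and 88.1 CPM before and at 67.0 and 16.3 CPM on day 21. Both Day 21 libraries lay below both Pre libraries, replicate 2 far below replicate 1, and the log2 difference was -1.13 ± 0.69 (SE). It was -0.41 without replicate 2 of day 21. The 2 main Eif1 tags, both in the 3′ UTR in exon 4 of 4, were each lower in both Day 21 libraries, the first at 45.9 and 52.4 CPM before and 38.0 and 9.91 CPM on day 21. Eif5b, the GTPase of subunit joining, was at 48.8 and 22.3 CPM before and 26.7 and 7.79 CPM on day 21 and overlapped (-1.03 ± 0.75). Its difference was -0.38 without replicate 2 of day 21 and -0.36 without replicate 1 of Pre AM. Eif5, the GTPase activator of eIF2, also picked after its values were seen, was the 1 tested member with both Day 21 libraries above both Pre libraries. It had only 8 and 12 tags before and 18 and 7 on day 21, and the nearest libraries were at 4.87 and 4.95 CPM.

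Eif5a, which helps the ribosome through difficult stretches and in termination, was at 78.1 and 115 CPM before and at 81.2 and 101 CPM on day 21. Eif6, which keeps the ribosomal subunits apart, was at 3.90 and 11.4 CPM before and 10.8 and 14.2 CPM on day 21. Both overlapped between the groups, with log2 differences of -0.09 ± 0.62 and 0.69 ± 0.78.

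The eIF2 arm, on which the stress kinases act, was counted at low levels. Eif2s1, the alpha subunit that the kinases phosphorylate, had 25 and 27 tags in the Pre libraries and 21 and 13 in the Day 21 libraries, with overlap once scaled and a log2 difference of -0.13 ± 0.74 (SE). Eif2s2 had 5 and 10 tags before and 4 and 3 on day 21, Eif2s3y had 3 tags in 1 Pre library, and Eif2s3x was listed at 0. Each of the 4 kinases (Eif2ak1, Eif2ak2, Eif2ak3 and Eif2ak4) had at most 4 tags in any library, and together they had 4 and 4 tags before and 4 and 2 on day 21. The 5 subunits of eIF2B, the exchange factor of eIF2, had 4 and 12 tags before and 6 and 14 on day 21. None of the kinases or eIF2B subunits had enough counts to be tested. Once scaled, eIF2B summed to 1.95 and 4.87 CPM before and 3.41 and 9.91 CPM on day 21, with overlap.

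**Figure D4:**
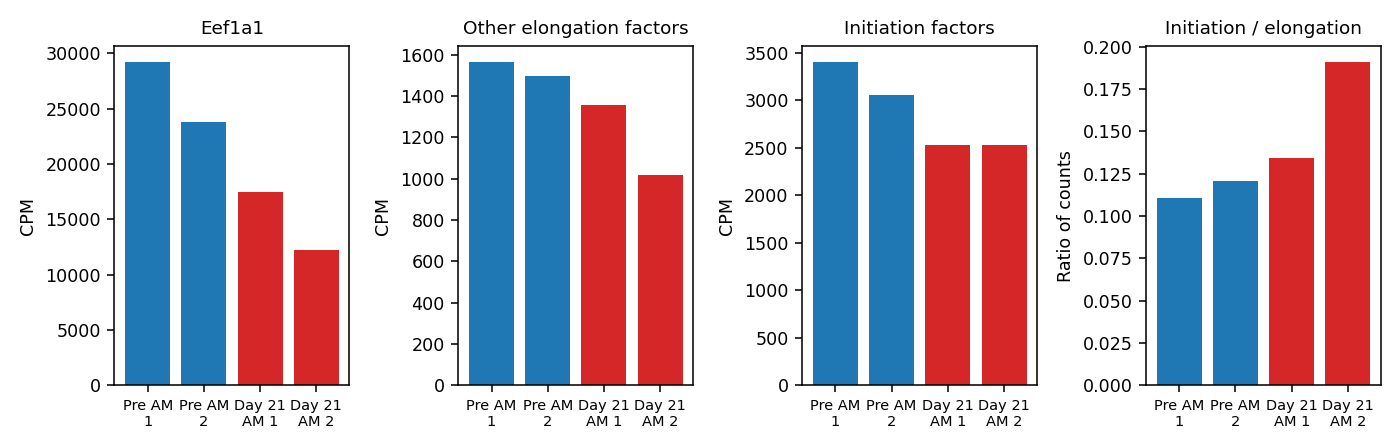
Level of Eef1a1, summed level of the other elongation factors and of the initiation factors (CPM), and ratio of initiation to elongation factor counts; 1 bar per library, axes from 0; blue, Pre AM; red, Day 21 AM. The sums are lower in both Day 21 libraries, and the ratio lies at 0.111 and 0.121 before and 0.134 and 0.191 on day 21.

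Set against each other, initiation factor counts were 0.111 and 0.121 of elongation factor counts in the Pre libraries and 0.134 and 0.191 in the Day 21 libraries. The groups did not overlap, with a log2 difference of 0.47 and an SD within groups of 0.26. The log2 difference was 0.22 without replicate 2 of day 21 and 0.72 without replicate 1 of day 21. The ratio rested on Eef1a1. Without Eef1a1 it was 2.18 and 2.04 before and 1.86 and 2.49 on day 21, with overlap and a log2 difference of 0.03. The initiation class and the elongation class without Eef1a1 thus differed between the groups by about the same amount, -0.35 and -0.38 on the log2 scale. Within the initiation class the log2 difference was -0.43 for the eIF3 sum and 0.06 for that of eIF4F and its partners.

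Where the tag lies in the mRNA was a feature that the choice of members did not use. Of the 138 counted tags of the 51 members, 104 matched 1 gene, 32 matched 2 or more and 2 matched no transcript. The most counted tag of a member lay at the last NlaIII site in 28 of 51 members, in the coding sequence in 24 and in the 3′ UTR in 25. Tags that matched 1 gene summed over all members to 2995 and 2666 CPM before and 2493 and 2120 CPM on day 21, which leaves out Eef1a1, since each of its counted tags matched several genes. Eef1g and the main tags of Eef1b2 and Eif3h, among others, are left out as well. The log2 difference of this sum was -0.30, with both Day 21 libraries lower.

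Other genes of the translation pathway were compared as lists, and no list had a gene past the test. The tag counts printed for these lists are not scaled for library size, whereas the signs and medians come from the scaled fit. Of the termination and recycling factors 1 was tested, Hbs1l, with 58 and 32 tags before and 20 and 15 on day 21, and Mcts1 had 5 and 7 before and 6 and 0 on day 21. Of the poly(A)-binding and eIF4-regulating proteins 3 were tested, of which 2 had negative differences. Their most counted members were Mknk2, a kinase of eIF4E, with 26 and 13 tags before and 62 and 4 on day 21, and Pabpc1, the poly(A)-binding protein, with 27 and 22 before and 10 and 3 on day 21. Among enzymes that modify the factors, Dph3, needed for the diphthamide of eEF2, had 11 and 18 tags before and 2 and 0 on day 21 (adjusted p of 0.626 by edgeR), and Dph1 had 6 and 7 before and 3 and 4 on day 21. Dph3, like Eif4a3, reached the minimum count of the filter only in the Pre libraries.

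Of the mTOR signalling genes 5 were tested and 1 had a negative difference, with a median of 0.22. The negative one was Rragc (-0.40). Lamtor2, of the lysosomal Ragulator complex, had 236 and 563 tags before and 321 and 474 on day 21. Rheb, the GTPase that activates mTORC1, had 156 and 179 tags before and 146 and 94 on day 21. Once scaled, Rheb was at 76.1 and 72.7 CPM before and 82.9 and 66.5 CPM on day 21, a log2 difference of 0.007. Of the integrated stress response genes 1 was tested, Ppp1r15a, the phosphatase subunit for eIF2 alpha, with 10 and 21 tags before and 17 and 29 on day 21. Once scaled, Ppp1r15a was at 4.88 and 8.53 CPM before and 9.65 and 20.5 CPM on day 21, without overlap. Its log2 difference was 1.15 ± 0.78 (SE), and it did not pass the test. Ddit3 had 3 and 3 before and 2 and 4 on day 21. Of the mitochondrial translation factors 2 were tested, Gfm1 with 68 and 30 tags before and 34 and 13 on day 21, and Gfm2 with 2 and 12 before and 41 and 34 on day 21 (adjusted p of 0.136 by edgeR). The cytosolic tRNA synthetases went the other way from the factors in sign, with 2 of 8 tested genes below 0 and a median of 0.40. Sars had 254 and 253 tags before and 257 and 192 on day 21, and Hars 168 and 191 before and 161 and 202 on day 21. Once scaled, Sars was at 124 and 103 CPM before and 146 and 136 CPM on day 21. Hars was at 82.0 and 77.6 CPM before and 91.4 and 143 CPM on day 21. The difference between these lists and the factors was not tested.

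Markers of cell types were read beside these values. Alveolar macrophage markers had counts for 13 of 14 listed (Fabp4 was at 0), and their summed level was 1050 and 2533 CPM before and 1599 and 3658 CPM on day 21. Chi3l3 made up 1041 and 2758 CPM of the Day 21 sums, and 7 of the 11 tested alveolar macrophage markers had negative log2 differences, with a median of -0.34 and none past the test. Markers of monocyte-derived or interstitial macrophages had counts for 9 of 11 (Folr2 and Lyve1 at 0). Their summed level was 53.7 and 97.9 CPM before and 2124 and 3207 CPM on day 21. By edgeR's test 5 of 6 tested genes rose (Apoe, Ms4a7, Trem2, C1qc and C1qb), beside 0.671% of all 2979 tested symbols. C1qc and C1qb were listed at 0 in both Pre libraries, so they entered the test through the Day 21 libraries alone. Lung epithelium markers had counts for 4 of 9 (Sftpa1, Cdh1, Krt8, Krt18 and Foxj1 at 0), summing to 84.4 and 159 CPM before and 37.5 and 46.0 CPM on day 21. Of these, 2 were tested, Krt19 and Epcam, both with negative log2 differences and neither past the test. Krt19 was at 28.8 and 124 CPM before and 13.6 and 39.6 CPM on day 21, with overlap. Epcam was at 53.2 and 26.8 CPM before and 19.3 and 4.95 CPM on day 21, without overlap. Neutrophil markers, 5 of 6 with counts and Mmp9 at 0, summed to 10.7 and 156 CPM before and 75.5 and 274 CPM on day 21. Erythroid markers, 2 of 5 with counts, summed to 32.7 and 151 CPM before and 23.3 and 61.6 CPM on day 21. Of the 8 genes of the hepatocellular list only 2, Trf and Afp, were among the symbols listed. Their counts were nearly all of Trf, at 41179 and 26390 CPM before and 40600 and 40694 CPM on day 21. Afp had 3 tags in replicate 2 of Pre AM and none elsewhere. The listed T or NK cell, B cell and endothelial markers (3 of each) were at 0. The monocyte-derived macrophage list (higher) and the epithelial list (lower) separated the same groups as the translation factor sums, without overlap, and their part in those sums was not tested. The alveolar macrophage, neutrophil, erythroid and hepatocellular lists overlapped between the groups.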

How the data were processed

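The 4 SAGE libraries, 2 per group, were deposited as unnormalised counts of 21-base tags, each with a gene symbol, per the file headers. Per the submitters' processing notes the build was mm9. Aligner and count filter: not given in the sources used here. Reads carry no molecular identifiers, so PCR copies are counted, and no tag has a count of 1.

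Counts were summed per deposited symbol and tested with edgeR 4.0.16 (R 4.3.3): quasi-likelihood test, TMM, filterByExpr (minimum count 10, minimum total 15), group as the only term, Benjamini-Hochberg adjustment over 2979 symbols, threshold 0.05. DESeq2 1.42.0 was an alternative. TMM factors were 0.866 to 1.12 and the biological coefficient of variation 0.482. Within each group the libraries differed by far more than counting error (chi-square 44.3 and 59.6 times its degrees of freedom), so each was 1 sample. Sums and ratios carry no test. Tags were matched, after CATG, to GENCODE M21 (GRCm38).

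Named genes were the counted elongation factors, the 12 most abundant initiation factors, and counted members of eIF2, its kinases and the eIF4E-binding repressors. Added to these were up to 6 tested initiation factors of largest log2 difference each way, from a mean of 10 CPM. Fewer than 6 were positive. Lists give their 2 most counted genes. The members and lists were chosen with earlier results of these data known. On simulated data for Day 21 AM against Pre AM (2979 genes), with 50 genes per fold size, edgeR called 2 at a 2-fold change, 4 at 4-fold, 29 at 8-fold and 47 at 16-fold, beside 2 of 2779 unchanged genes.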

Additional observations from a re-analysis of the deposited data

How the results depend on the processing

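The count of members called was 0 in each of the 13 settings run, by edgeR or DESeq2, and the smallest member p adjusted over all symbols ranged from 0.209 to 0.9999. The number of symbols called over all genes was 22, and it became 9 with total counts alone, 41 with no filter on low counts and 9 with the most counted tag only. It ranged from 9 to 81 as each library was left out, with 9 without replicate 1 of Pre AM and 81 without replicate 2 of Pre AM. In those fits the lone library is assumed to vary like the other group. The libraries share replicate numbers only: a fit with the replicate number as a block called 37 symbols (28 higher, 9 lower) and 0 members, and the correlation of deviations of same-numbered libraries was 0.54. The median of the initiation factors ranged from -0.79 to -0.22 and their summed difference from -0.40 to -0.27 as each library was left out, and the sum was -0.58 with total counts alone. Over the same fits the median of the elongation factors ranged from -0.763 to -0.207, their summed difference from -1.02 to -0.535 and the ratio from 0.216 to 0.724, the end nearest 0 being without replicate 2 of day 21 in each. Total counts alone move the median of all genes from -0.07 to -0.29. Signs of 7 named members that did not pass the test turned. As each library was left out, Eef1d ranged from -0.505 to 0.148, Eif2s1 from -0.277 to 0.077, Eif3k from -0.435 to 0.868, Eif4a1 from -0.408 to 0.539, Eif4e2 from -1.01 to 0.353, Eif4g2 from -0.177 to 0.517 and Eif5a from -0.343 to 0.244. Under other settings Eif3k was -0.182 and Eif4g2 -0.133 with total counts alone, and Eif4a1 was 0.029 with upper-quartile factors and 0.047 with the replicate block. Of members that kept their sign, Eef2 ranged from -0.656 to -0.027, Eef1g from -0.763 to -0.172, Eif1 from -2.43 to -0.413, Eif3a from -1.37 to -0.201, Eif3f from -0.82 to -0.136 and Eif5b from -2.13 to -0.357. Some settings were added after seeing the data: leaving out member tags of 2 or more genes gave -0.32 for the elongation sum, 0.04 for the ratio and -0.036 for Eif4g2, and leaving out Eef1a1 gave -0.38 for that sum and 0.029 for the ratio. Counts of members below 0 under other settings were added too. When no filter was used, 36 of the 51 counted members were below 0, beside 57.2% of all symbols. With total counts alone it was 23 of 27 members, beside 67.4% of all symbols. The cause of these shifts was not tested. In the simulation few genes changed 2-fold or 4-fold were recovered, so most differences of the size seen here would rarely be detected with 2 libraries per group.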
